A study of Mus musculus with 8 samples.

Results

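Il6 and 9 other genes of the gp130 cytokine family were followed in ILC3s, the group 3 innate lymphoid cells, which live in mucosal tissue and are a main source of interleukin 22. The 10 genes, out of 27179 rows in the count table, were found by symbol: the ligand genes Il6, Il11, Il27, Lif, Osm and Clcf1 and the receptor genes Il6ra, Il6st, Lifr and Osmr. All 10 have a row. The family was chosen by the level of Il6 in these libraries, which differed between the groups, so that difference is a description and carries no test.

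The RNA came from CCR6+ ILC3s of the large intestine, taken at steady state from C57BL/6 mice, with 1 library per mouse. In 4 mice both Zbtb46 alleles were floxed and no Cre is named (genotype Zbtb46f/f, labelled wild type, here Zbtb46-sufficient, replicates 1 to 4). In the other 4 the same floxed alleles were combined with a Cre recombinase (labelled Zbtb46 KO, here Zbtb46-deficient, replicates 5 to 8). The floxed controls are not stated to carry the Cre. The labels give neither age nor sex. If the controls lack the Cre, the difference between groups holds both the deletion and the Cre.

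Library totals ran from 25328231 to 33760743 counts. Levels are given in CPM, counts divided by the scaled library total of tested-gene counts and expressed per 1e6. The limit that a count of 0 allows, 3 counts, corresponds to 0.0856 to 0.124 CPM. The low-input kit amplifies cDNA from few cells, so this limit covers counting error only. All 10 genes of the ILC3 marker list, among them Ccr6, Il7r and Il22, exceeded 3 counts in every library. Zbtb46 had 8.02, 48.8, 88.9 and 26.6 CPM in sufficient against 4.82, 0.532, 3.19 and 0.125 CPM in deficient replicates, all counted over the whole gene, since the floxed exons are not named in the labels. Sufficient replicate 1 and deficient replicate 6 correlated least with the other libraries over tested genes (median Spearman 0.693 and 0.679, against 0.729 to 0.758 for the rest). With 1 library per mouse, the spread within a group holds both the mice and the preparation of the libraries.

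Cytokines of this family signal through gp130, the shared receptor chain encoded by Il6st. Interleukin 6 first binds its own receptor chain, encoded by Il6ra, whereas leukaemia inhibitory factor pairs gp130 with the Lifr product and oncostatin M pairs it with the Osmr product. Janus kinases bound to these chains activate STAT3, and SOCS proteins feed back on the signal. In the gut, interleukin 6 is known for its part in mucosal inflammation, epithelial repair and T helper 17 differentiation.

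The Il6 promoter is a standard example of an inducible promoter with sites for NF-kB, C/EBP, CREB and AP-1 factors. Because Il6 was near 0 in 1 group and Lif was present in all libraries, the 250 bases before the RefSeq start of each are printed 5′ to 3′ (RefSeq, GRCm38.p6), with motif matches in capitals. Il6 lies at chr5:30012864-30013113 on the plus strand and Lif at chr11:4257318-4257567 on the plus strand.
Il6: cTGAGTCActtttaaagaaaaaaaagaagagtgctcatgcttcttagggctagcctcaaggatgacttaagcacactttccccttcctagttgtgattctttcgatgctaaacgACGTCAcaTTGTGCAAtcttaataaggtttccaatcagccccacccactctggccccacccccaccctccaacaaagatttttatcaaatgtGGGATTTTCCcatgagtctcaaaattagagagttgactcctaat
Lif: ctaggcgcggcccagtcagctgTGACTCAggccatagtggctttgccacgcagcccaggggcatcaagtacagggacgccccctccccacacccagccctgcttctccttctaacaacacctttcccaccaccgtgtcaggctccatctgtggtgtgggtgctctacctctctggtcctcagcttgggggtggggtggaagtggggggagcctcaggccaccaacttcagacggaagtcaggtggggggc
Matches were searched on both strands for 5 motifs. They were a kappaB pattern for NF-kB, TGANTCA for AP-1, TTNNGNAA for C/EBP, TGACGT as the CREB core, and TTCNNNGAA for STAT factors. The kappaB pattern required T bases before its closing CC and is not the general kappaB consensus. Other kappaB sites that fit that consensus were not searched for, in these sequences or in the windows below. Il6 had 1 match each for NF-kB (GGGATTTTCC, bases -44 to -35 from the start), AP-1, C/EBP and the CREB core, with no overlap among them, and none for STAT. Lif had 1 match, for AP-1. Of 32841 windows of the same length, 1.41% held the NF-kB motif, 6.75% the AP-1 motif, 36.9% the C/EBP motif, 6.47% the CREB core and 7.02% the STAT motif. The matches describe these letters only. A promoter sequence was found for 7 of the 10 genes.

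Il6 transcripts were present in every Zbtb46-deficient library and near 0 in every sufficient one. Il6 (Entrez ID 16193, chromosome 5, 30013114 to 30019975 in GRCm38.p6) had 0, 0, 0.0360 and 0 CPM in sufficient replicates 1 to 4, a single read in all. The deficient replicates 5 to 8 had 40.2, 101, 55.9 and 18.8 CPM, from 1410, 2647, 1786 and 602 reads. The lowest deficient library thus held 602 reads against at most 1 in any sufficient library, and the deficient values themselves spread widely, with a mean of 53.9 ± 34.6 CPM (SD, n = 4). Summed over each group and scaled, deficient over sufficient, the ratio was 5294 (95% exact interval 950 to 209116, counting error only). Per kilobase of exon, the mean Il6 level in deficient ILC3s was higher than that of 77.6% of the tested genes with a length. In bulk RNA, more cells with the transcript and more transcript per cell cannot be told apart.

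**Figure D1:**
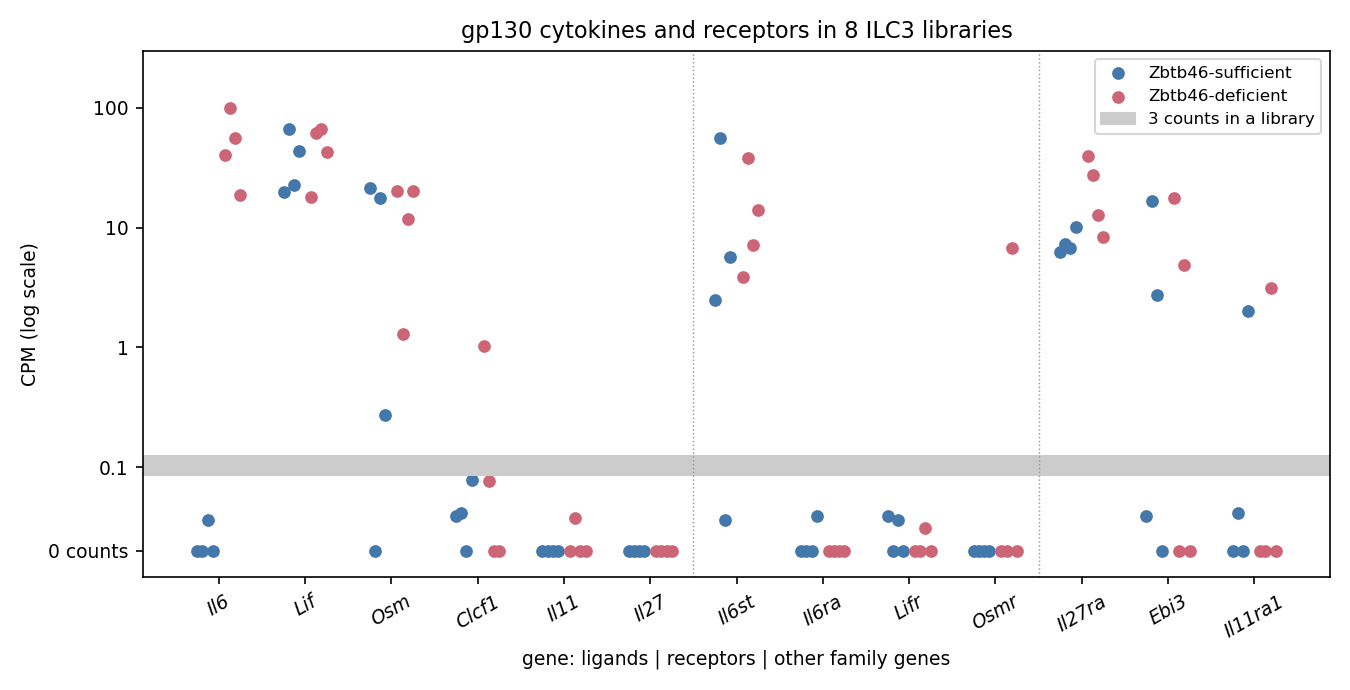
CPM (log scale) of 13 genes of the gp130 family in 4 Zbtb46-sufficient and 4 Zbtb46-deficient libraries, 1 point per library, with libraries at 0 counts on the lowest tick and a grey band at 3 counts. The groups are separated in Il6, with 18.8 CPM or more in every deficient library, and overlap in the other genes shown.

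The pattern of Il6 was rare in the whole table. Among 19290 genes with a count, 2 genes, Il6 and Ift57, had at most 3 counts over the sufficient libraries together and at least 10 CPM in each deficient one (0.0104%). The reverse pattern was found in 0 genes (0%). With a minimum of 5 CPM, 5 genes had it, adding Clec7a, Fam241a and the unnamed model Gm19705. As Il6 led to the choice of the family, these counts place it in the table and test nothing.

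The 5 named genes whose levels lay nearest to those of Il6, by the root mean squared difference of log2(CPM + 1) over the 8 libraries, were Ift57, Ptger2, Ttyh2, Clec7a and Fgfbp3, with differences of 0.874, 1.11, 1.16, 1.18 and 1.35. Ift57, a component of the intraflagellar transport machinery of cilia, had 12.1, 37.0, 24.5 and 17.1 CPM in the deficient replicates and 1 read in the sufficient ones. Ptger2, the EP2 receptor for prostaglandin E2, had 9.22, 46.1, 43.0 and 41.6 CPM against 0, 0.0827, 2.56 and 0.0393 CPM. Clec7a, the β-glucan receptor dectin-1 best known from myeloid cells, had 7.68, 35.9, 20.4 and 6.44 CPM against no read in any sufficient library. Deficient replicate 6 was the highest library in Il6, Ift57, Ptger2, Ttyh2 and Clec7a but not in Fgfbp3, which was highest in replicate 5 at 27.9 CPM. Ttyh2, of the tweety family of membrane proteins, and Fgfbp3, a carrier of fibroblast growth factors, had 16.9 ± 11.7 and 16.3 ± 10.7 CPM in deficient libraries. All 5 were chosen for their likeness to Il6, so no test is given.

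**Figure D2:**
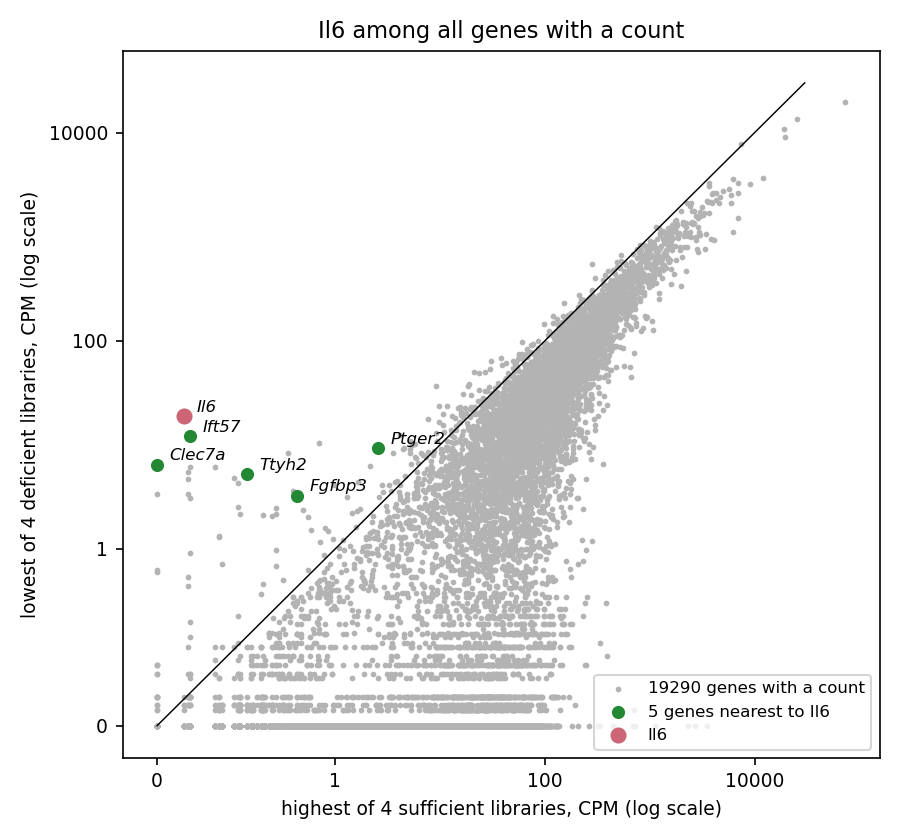
The lowest of the 4 deficient libraries against the highest of the 4 sufficient libraries, in CPM on log scales with 0 on the lowest tick, for 19290 genes with a count. Genes above the diagonal have no overlap with the deficient group higher, and Il6 lies far above it at 18.8 against 0.0360 CPM, beside its 5 nearest genes.

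The genes around Il6 did not share its pattern. Of 13 protein-coding genes within 500 kb of it, 6 passed the filter on low counts. None of the 6 passed edgeR's test, but that test called 0 of all 8878 tested genes, so it cannot set them apart. Tyms, which lies downstream of Il6 and encodes thymidylate synthase, had 32.8 ± 27.2 CPM in sufficient against 23.4 ± 18.3 CPM in deficient libraries. Dnajb6, a chaperone gene, was the only tested neighbour whose groups did not overlap, with 57.4 to 95.2 CPM in sufficient against 30.3 to 56.9 CPM in deficient libraries. Its log2 fold of -0.74 ± 0.50 (SE) ran opposite to Il6, and no overlap with the deficient group lower was found in 2.1% of tested genes. The noncoding gene A230098N10Rik, whose span contains that of Il6, had 0 reads in all 8 libraries.

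Of the other ligands, Lif and Osm were present and did not follow Il6. With edgeR's quasi-likelihood test over 8878 genes, 0 genes were higher and 0 lower in deficient ILC3s at an adjusted p under 0.05 (0% and 0%). Zbtb46 itself was not called, with a log2 fold of -4.31 ± 1.42 (SE) and an adjusted p of 0.885 in edgeR's test. A gene that is not called is thus not shown to be alike in the groups. At an unadjusted p under 0.05 edgeR had 364 genes (4.1%). DESeq2 called 240 higher (1.44%) and 134 lower (0.802%) of 16714 genes, and limma-voom called 0 with 775 genes (8.73%) at an unadjusted p under 0.05. Of the 10 family members, 4 passed the filter (Il6, Lif, Osm and Il6st) and 6 did not. Of the family genes other than Il6 that each tool tested, 5 with edgeR, 6 with DESeq2 and 5 with limma-voom, 0 were called. The smallest adjusted p was 0.9999 with edgeR, 0.181 with DESeq2 (Il27ra) and 0.603 with limma-voom (Osm).

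Lif, the ligand known for keeping mouse embryonic stem cells undifferentiated, was the only member with more than 3 counts in all 8 libraries. It had 19.8, 67.1, 22.7 and 43.5 CPM in sufficient against 17.9, 61.6, 66.9 and 43.0 CPM in deficient replicates. The groups covered nearly the same range, and replicates 5 and 1 were the lowest. The log2 fold was 0.31 ± 0.69 (SE), and without sufficient replicate 1 and deficient replicate 6 together it was -0.05. Per kilobase of exon, the mean level in deficient libraries was 10.9 CPM per kb for Lif and 22.2 CPM per kb for Il6, whereas in sufficient libraries Lif stood at 8.80 CPM per kb and Il6 at 0.00371.

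Osm, encoding oncostatin M, a ligand made mostly by haematopoietic cells, was present in some libraries of both groups and nearly missing in others. It had 21.6, 0, 17.7 and 0.275 CPM in sufficient against 20.3, 1.29, 11.9 and 20.4 CPM in deficient replicates. Sufficient replicates 2 and 4 and deficient replicate 6 were low, and the remaining 5 libraries lay between 11.9 and 21.6 CPM in both groups. The log2 fold was 0.44 ± 1.86 (SE), and it moved between 0.02 and 1.16 when 1 library was left out. The library highest in Il6, deficient replicate 6, was thus the lowest of its group in Osm.

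The remaining 3 ligands were at or near the limit of detection. Clcf1, which signals through the receptor for ciliary neurotrophic factor, had 36 reads (1.03 CPM) in deficient replicate 5 and at most 2 reads in any other library. Il11, a ligand linked to fibrosis, had 1 read over all 8 libraries. Il27, which encodes the p28 chain of interleukin 27, had 0. By counting error alone, a count of 0 in a library allows a level of up to about 0.1 CPM.

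Il6ra, Lifr and Osmr, the member receptor genes other than Il6st, were hardly detected in most libraries. Il6ra, the interleukin 6 receptor chain, had 1 read in 8 libraries, in sufficient replicate 4. Lifr had 3 reads in all, 1 in each of 3 libraries. Osmr had 216 reads (6.76 CPM) in deficient replicate 7 and 0 in the other 7 libraries. Deficient replicate 7 also had the highest summed fibroblast and endothelial markers of its group, with 244 CPM of the collagen gene Col3a1, 134 CPM of Dcn, which encodes decorin, and 10.4 CPM of the fibroblast receptor gene Pdgfra. In the other deficient libraries Dcn was at 0, Col3a1 at 0 to 0.0380 and Pdgfra at 0 to 0.0571 CPM. Sufficient replicate 1 had a higher sum, 1174 against 493 CPM, with 687 CPM of Dcn, 72.4 of Col3a1 and 0 of Pdgfra. Lum, which encodes the matrix proteoglycan lumican, had another order, with 188, 95.5, 63.2 and 24.2 CPM in deficient replicates 5 to 8. Their part in the Osmr value was not tested. The 4 deficient libraries, all with Il6 transcripts, had 0 reads of Il6ra.

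Il6st, the gp130 chain itself, was present in 7 of 8 libraries and varied far more within groups than between them. It had 2.50, 56.0, 0.0360 and 5.66 CPM in sufficient against 3.85, 38.1, 7.16 and 13.9 CPM in deficient replicates. The highest value was in sufficient replicate 2, and sufficient replicate 3 held a single read. Means were 16.0 ± 26.7 and 15.7 ± 15.4 CPM (SD, n = 4), with a log2 fold of -0.03 ± 1.66 (SE). Without sufficient replicate 2, which also had 137 CPM of the epithelial gene Epcam, the log2 fold was 2.53, and without deficient replicate 6 it was -0.93.

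Outside the 10 members, 10 further ligands and receptors of the family or close to it were examined, and 2 of them, Il27ra and Ebi3, passed the filter. Il27ra, the chain that joins gp130 in the interleukin 27 receptor, exceeded 3 counts in all 8 libraries. It had 6.30, 7.32, 6.77 and 10.2 CPM in sufficient against 39.7, 27.3, 12.6 and 8.35 CPM in deficient replicates. Deficient replicates 5 to 7 lay above all sufficient libraries and replicate 8 lay below sufficient replicate 4. The log2 fold was 1.52 ± 1.08 (SE, edgeR's adjusted p 0.9999), and it ranged from 1.07 to 1.8 with 1 library left out. Ebi3, the partner chain of p28, had 0.0391, 16.8, 2.74 and 0 CPM against 17.6, 0, 4.91 and 0 CPM, so each group held 2 libraries above 3 counts and 2 with at most 1 read. Il11ra1 had 2.00 CPM in sufficient replicate 4 and 3.16 CPM in deficient replicate 7, with at most 1 read in any other library. Ctf1 had 10 reads in deficient replicate 7 and none elsewhere. Cntf, Il31 and Il31ra had 0 reads, and Ctf2 and Cntfr 1 each.

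Downstream of gp130, Jak1, Jak2 and Stat3 were abundant, at 247 CPM or more in every library, and their levels overlapped between groups. Of 13 signalling genes 11 were tested, with 6 fitted higher and 5 lower, 0 called, and a median log2 fold of 0.06, beside 0.02 over all tested genes. Stat3 had 851, 675, 531 and 1098 CPM in sufficient against 884, 1062, 643 and 706 CPM in deficient replicates. Its log2 fold was 0.06 ± 0.26 (SE). Jak1, the kinase that gp130 chiefly depends on, had 608 ± 171 and 570 ± 340 CPM. Ptpn11, the phosphatase SHP-2 that docks on gp130, had 29.5 ± 8.99 and 41.1 ± 41.8 CPM, with deficient replicate 6 at 89.5 and replicate 5 at 3.37 CPM. Adam17, the protease that sheds the interleukin 6 receptor, had 28.3 ± 13.1 and 52.8 ± 24.1 CPM, a log2 fold of 0.90 ± 0.68. Tyk2, a further Janus kinase, was at 1.45, 2.81, 1.01 and 18.0 CPM against 3.62, 45.9, 35.1 and 0.0626 CPM, low in most libraries of the sufficient group and uneven in the deficient one. Tyk2 and Adam10, a second sheddase, had log2 folds of 1.86 ± 1.75 and 1.73 ± 1.70. With standard errors of this size, the groups were not shown to be alike in these genes.

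Among 18 genes that STAT3 is known to induce, 11 were tested, with 5 fitted higher and 6 lower, 0 called, and a median log2 fold of -0.07. Socs3, the feedback inhibitor that binds gp130 and is the textbook readout of its activity, was low, at 0.391, 0.621, 2.99 and 2.71 CPM in sufficient against 5.79, 0.0759, 0.188 and 5.94 CPM in deficient replicates. The 2 deficient libraries with the most Il6, replicates 6 and 7, had the least Socs3 of all 8, at 2 and 6 reads. The other 2, replicates 5 and 8, had the most Socs3 of all 8. A link between Il6 and Socs3 was not tested. Socs1, a second inhibitor of Janus kinases, had 43.5, 25.7, 25.9 and 33.9 CPM against 24.6, 12.6, 12.2 and 12.1 CPM, without overlap. Ccnd1, encoding cyclin D1, also had no overlap, with 6.63 to 14.9 CPM in sufficient against 0.0313 to 6.49 CPM in deficient libraries. Neither passed edgeR's test (adjusted p 0.9999 for both, log2 folds of -1.07 ± 0.82 and -1.56 ± 1.59). Cebpd had 19.4 CPM in sufficient replicate 3 and at most 3.75 CPM elsewhere. The STAT3 target genes Timp1 and Lrg1 had 0 reads in every library.

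**Figure D3:**
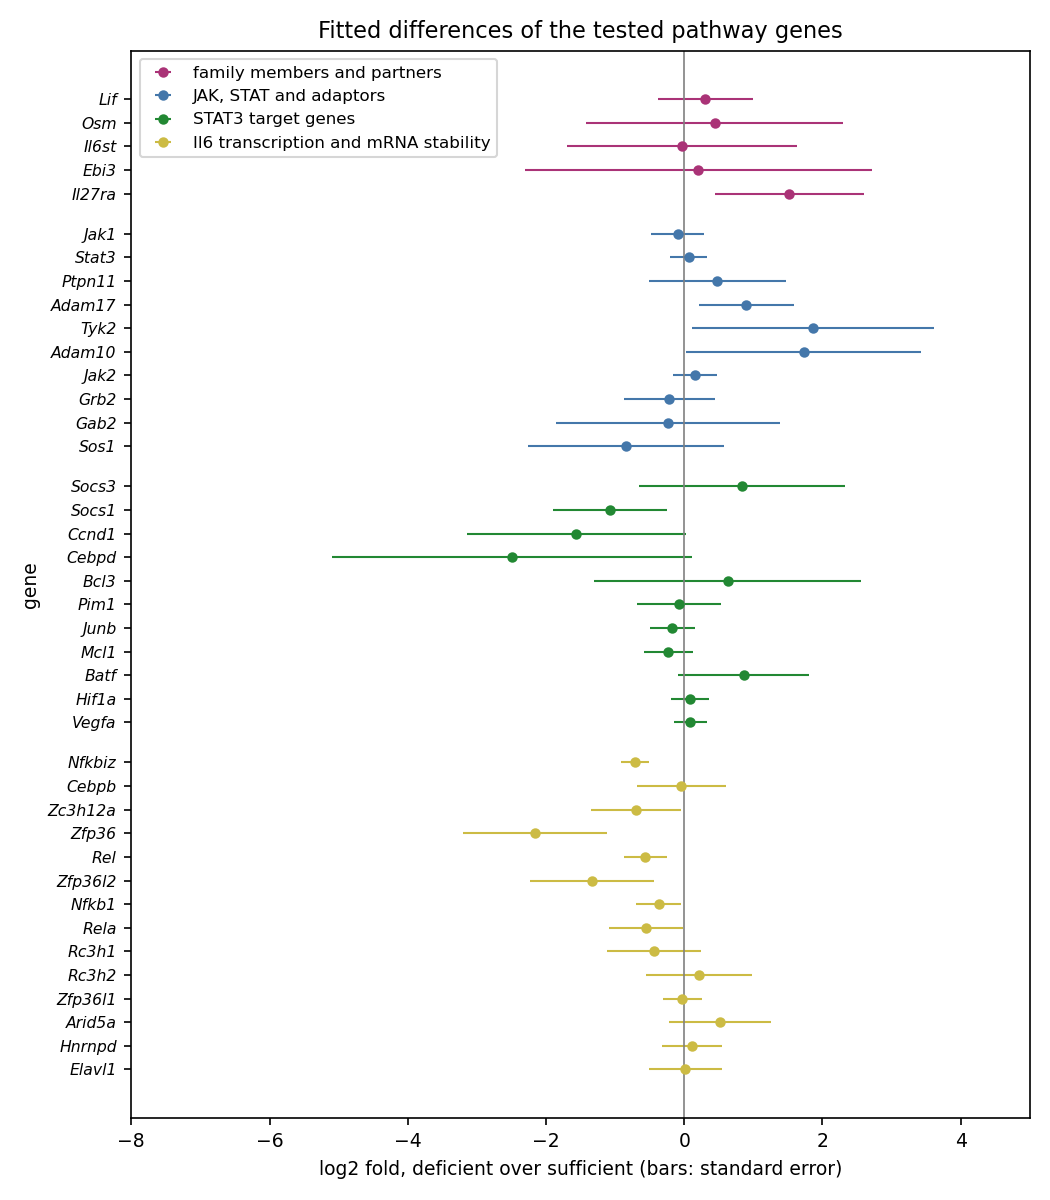
Log2 folds of the tested pathway genes, deficient over sufficient, with bars for the standard error, in 4 groups of genes by role, with 1 gene of the signalling list not drawn; Il6 is left out because its fold depends on the prior count added to 0. None of the genes passed the adjusted test, and 10 of the 14 genes linked to Il6 transcription and mRNA stability lie below 0 (8 without scaling factors).

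Of 14 genes known to control Il6 transcription or the stability of its mRNA, all were tested, with 10 fitted lower and 4 higher in deficient ILC3s and 0 called. Their median log2 fold was -0.40, beside 0.02 over all tested genes, of which 49.1% were fitted lower. Without scaling factors 8 were lower and 6 higher. Nfkbiz, encoding IκBζ, a nuclear cofactor of NF-kB needed for Il6 induction in macrophages, had 687, 816, 566 and 897 CPM in sufficient against 388, 503, 442 and 473 CPM in deficient replicates. The groups did not overlap, and the log2 fold of -0.72 ± 0.20 (SE) had an adjusted p of 0.664 in edgeR's test. Zfp36, encoding tristetraprolin, which destabilises cytokine mRNAs, had 101, 30.4, 25.9 and 41.3 CPM against 5.85, 0.949, 23.3 and 14.4 CPM, also without overlap. Its log2 fold was -2.16 ± 1.04 (SE, edgeR's adjusted p 0.9999), and its part in the Il6 level was not tested. Zc3h12a, encoding the ribonuclease Regnase-1, which cleaves Il6 mRNA, had 42.7 ± 8.99 and 26.4 ± 8.07 CPM, with overlap. Zfp36l2 and Rel had log2 folds of -1.34 ± 0.90 and -0.56 ± 0.31. Cebpb, encoding C/EBPβ, once named nuclear factor for IL-6, had 46.2 ± 26.9 and 44.9 ± 18.4 CPM. No overlap with the deficient group lower was found in 2 of these 14 genes and 2 of the 11 STAT3 targets, where all tested genes had 2.1%, and none had the deficient group higher, where all had 2.26%.

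Markers of other cell types were set beside Il6 in each library, because fibroblasts, macrophages, dendritic cells, mast cells and B cells can make interleukin 6. The 9 fibroblast and endothelial markers summed to 52.0 to 1174 CPM in sufficient against 69.5 to 493 CPM in deficient libraries. The highest sum was in sufficient replicate 1. More than 3 counts were found for 3 to 6 of them in the sufficient and for 2 to 7 in the deficient libraries, and in deficient replicate 8, 7 of the 9 were at 0. The 10 macrophage and neutrophil markers summed to 1.08 to 88.9 CPM in sufficient against 374, 11.8, 786 and 4.07 CPM in deficient replicates, where 5, 5, 9 and 2 of them exceeded 3 counts, against 2 to 6 in the sufficient ones. Most of the sums in replicates 5 and 7 came from S100a8 (238 and 316 CPM) and S100a9 (94.1 and 359 CPM). Replicate 7 also had 49.7 CPM of Cd14, 35.4 of Lyz2, 7.35 of C1qa, 6.38 of C1qb, 6.26 of Adgre1 and 6.04 of Itgam. Its Csf1r was at 0.125 CPM. Replicate 5 had 39.1 CPM of Cd14 and 2.65 of Adgre1, beside 0.114 of Lyz2 and 0 of Itgam and Csf1r. Among sufficient libraries, Cd14 reached 45.8 CPM and Lyz2 21.4 CPM, and Adgre1 was at 0 in each. Replicate 6, with 101 CPM of Il6, had 1.18 CPM of Lyz2, 0.0380 CPM of Adgre1 and 0 of Itgam, beside 2.39 CPM of Csf1r, 4.14 CPM of S100a8 and 3.42 CPM of S100a9. Replicate 8 had 0 of Lyz2, Adgre1, Itgam and Csf1r, beside 3.75 CPM of C1qb.

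The 8 dendritic cell markers summed to 67.8 to 105 CPM in sufficient against 65.4 to 249 CPM in deficient libraries. More than 3 counts were found for 2 to 3 of them in sufficient and 3 to 5 in deficient libraries. Most of the sum came from Xcr1, a chemokine receptor, at 28.7 to 115 CPM, and Ccl17, a chemokine, at 13.9 to 120 CPM, both present in all 8 libraries and highest in deficient replicate 5. Siglech and Cd209a were at 0 in all libraries, and Flt3, Itgax and Clec9a stayed at or below 0.380 CPM. Irf8, which dendritic cells, macrophages and B cells share, had 5.75, 0.331, 0.937 and 0.0786 CPM against 13.6, 16.6, 7.63 and 25.7 CPM, without overlap. Of the 9 mast cell markers, summing to 0 to 34 CPM in sufficient against 3.63 to 66.2 CPM in deficient libraries, 7 or 8 were at 0 in each deficient library. Cpa3 had 66.2 CPM in deficient replicate 6 and 0 in the other deficient libraries, while the IgE receptor genes Fcer1a and Ms4a2 had 1 read in all. Sufficient replicate 2 had 3.19 CPM of Cpa3. Hdc had 0, 30.8, 0 and 0.118 CPM in sufficient against 7.70, 0.0380, 11.5 and 3.63 CPM in deficient replicates. The 8 B and plasma cell markers summed to 8.96 to 136 CPM in sufficient against 21.3 to 94.9 CPM in deficient libraries. Igkc and Jchain, which encode antibody chains, reached 114 CPM in sufficient replicate 1 and 58.9 CPM in deficient replicate 5. Cd79b, a chain of the B cell receptor complex, was at 0, 0, 22.3 and 3.07 CPM against 15.6, 18.1, 0.0313 and 23.8 CPM, whereas Ms4a1 stayed at or below 0.0759 CPM. The 7 T cell markers summed to 57.9 to 144 and 29.2 to 132 CPM, and the 8 NK cell and ILC1 markers to 49.8 to 248 and 189 to 634 CPM. Most of the latter sum in each deficient library came from Ncr1. It had 0.0391, 41.1, 67.4 and 198 CPM in sufficient against 447, 148, 151 and 270 CPM in deficient replicates. Gzma reached 59.4 CPM in deficient replicate 5 and Ccl5 105 CPM in replicate 7. Eomes stayed at or below 0.0571 CPM and Prf1 at 0 in all libraries. The 6 ILC2 markers summed to 19.0 to 89.9 and 8.23 to 95.5 CPM, and the 7 epithelial markers to 0.216 to 1296 and 0.751 to 28.7 CPM. The part of these cells in the Il6 difference was not tested.

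**Figure D4:**
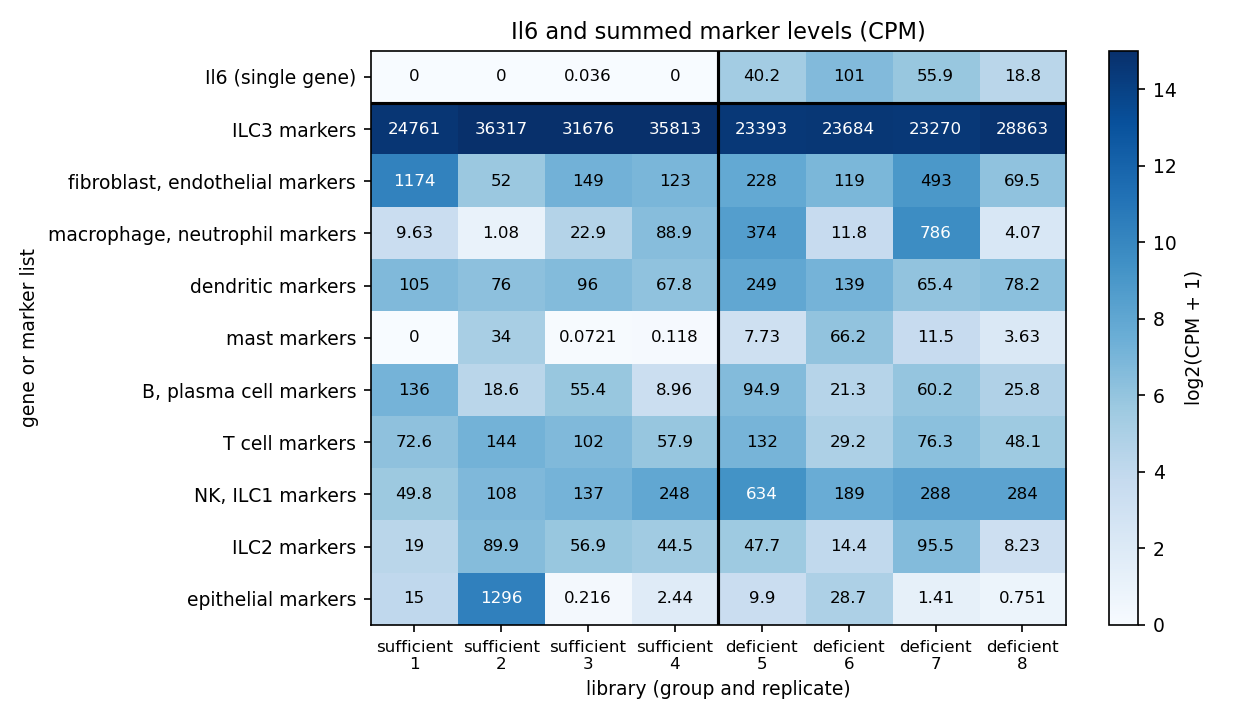
Il6 and the summed CPM of each marker list in the 8 libraries, with the value in each cell and the colour on a log2(CPM + 1) scale. Il6 is above 18 CPM in all 4 deficient libraries. The macrophage and neutrophil sum is highest in deficient replicates 5 and 7, and the mast cell sum in deficient replicate 6. The part of these cells in the Il6 level was not tested.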

How the data were processed

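The deposited values are raw counts per gene, whole numbers in 1 table of 27179 rows and 8 libraries of SMARTer-amplified RNA from sorted ILC3s. Per the submitters' processing notes, CASAVA 1.8.2 and STAR 2.3.0 were used with the mm10 build of the mouse genome. The counting tool and its use of strand were not stated, so reads of overlapping genes could not be separated by strand. Rows were named through RefSeq by gene ID, and 25275 matched a symbol. The 1904 unmatched rows hold 0.303% of the counts.

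Groups were taken from the genotype in the sample labels. Counts were fitted with edgeR 4.0.16 (R 4.3.3): filterByExpr, TMM scaling, and a quasi-likelihood F test of deficient against sufficient over 8878 genes with Benjamini-Hochberg adjustment at 0.05. CPM used the tested-gene totals times the TMM factors, and the standard error of a log2 fold is its size divided by the square root of F. DESeq2 1.42.0, limma 3.58.1 (voom with quality weights), RLE or no scaling, no filter, a stricter filter and leaving out libraries were alternatives. The fitting was tested on simulated data. Lengths are union exons of GENCODE on GRCm38, and coordinates and promoters come from RefSeq GRCm38.p6.

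The members and gene lists were chosen with earlier results of these data known. Named are all members, other family genes that passed the filter, 8 fixed pathway genes, up to 3 more per pathway list by smallest p, the 5 genes nearest to Il6, and its neighbours within 500 kb. Markers, and genes below the filter or singled out within a list, were chosen after their values were seen. The 95% interval of the Il6 ratio is an exact binomial one. Some genes of the lists, and the driver of the Cre, are not reported here.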

Additional observations from a re-analysis of the deposited data

Results flagged for a closer look

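In 48 groups of 4 libraries, counting family and named pathway genes whose highest library exceeded 3 counts, 11 had 1 library set apart from the other 3 by a gap above Dixon's 95% critical share of the group's range. For normally distributed values this share is exceeded in 5% of groups, about 2.4 here. Counts with many zeros are not distributed so, and genes entered through their highest library. The 11 groups are therefore not set against chance. In the sufficient group, replicate 2 had 55.97 CPM of Il6st and 16.75 CPM of Ebi3, replicate 4 had 2.004 CPM of Il11ra1 and 18.0 CPM of Tyk2, and replicate 3 had 19.35 CPM of Cebpd. In the deficient group, replicate 7 had 6.758 CPM of Osmr, 0.3129 CPM of Ctf1, 3.16 CPM of Il11ra1 and 3.754 CPM of Cebpd, with 0 reads in the other 3 libraries for each. Deficient replicate 5 had 1.027 CPM of Clcf1 against at most 0.07595 in the others, and 24.6 CPM of Socs1 against 12.14 to 12.57. In every case the library that stood apart was the high one, which the entry rule favours. Il6 was not among them in either group.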

How the results depend on the processing

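Calls depended on the tool and the filter. DESeq2 had 240 genes higher and 134 lower. With no filter edgeR had 1 higher (Il6) and 1 lower (Med31), against 0 and 0 with the filter. As Il6 led to the choice of the family, its call tests nothing. Leaving out 1 library gave 0 higher in each case and 0 to 2 lower, the 2 (Eprs and Cdk11b) without deficient replicate 6. Genes on in deficient and off in sufficient libraries numbered 5 at 5 CPM, 2 to 5 with 1 library left out (2 in the full set), and 0 to 1 in the reverse direction. The Il6 mean in deficient libraries ran from 38.3 to 65.5 CPM with 1 left out. Some log2 folds changed sign, and the cause was not tested. With no scaling Il6st was 0.046 and Cebpb 0.048, and with no filter Il6st was 0.056. With limma-voom Il6st was 1.68, Ebi3 -0.30, Ptpn11 -0.97, Cebpb 0.068 and Tyk2 -0.49. Without sufficient replicate 1 and deficient replicate 6 Lif was -0.050, Stat3 -0.041, Ptpn11 -0.22 and Cebpb 0.42. Without deficient replicates 5 and 7 Il6st was 0.71, Ebi3 -10.02 and Jak1 0.31. With 1 library left out, Il6st ran from -0.93 to 2.53, Ebi3 from -1.59 to 2.59, Jak1 from -0.59 to 0.12, Stat3 from -0.082 to 0.26, Ptpn11 from -0.26 to 0.86, Cebpb from -0.32 to 0.41 and Cebpd from -10.22 to 0.59. None of the 21 genes named from the family and pathway lists, Il6 aside, passed the adjusted test under any alternative, the smallest adjusted p being 0.0626 (Nfkbiz, DESeq2). No paired analysis was possible because the groups share no replicate number. Low counts limit what can be said of the 6 untested members, which lie near or below 3 counts in most libraries.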
